A study of Mus musculus with 9 samples.

Results

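Transcript levels were compared between C2C12 cells given an siRNA against Cugbp1 and C2C12 cells given a control siRNA. C2C12 is a line of mouse myoblasts, muscle precursor cells that divide in serum. The comparison uses 6 of the 9 arrays of the series: 3 of cells with control siRNA and 3 of cells with Cugbp1 siRNA, with 1 array for each siRNA at each of 3 times. Cells of all groups grew in medium with serum and were harvested 0, 2.5 or 5 h into treatment with actinomycin D (5 ug/ml), an inhibitor of transcription. The other 3 arrays, of cells given Mbnl1 siRNA at the same times, entered the same fit and serve as a second knockdown for comparison. The level difference of a gene is the log2 intensity with Cugbp1 siRNA minus that with control siRNA at the same time, averaged over the 3 times. All named genes bright enough to be measured are described: 9864 of 19938 passed an intensity filter (mean log2 of at least 7.385, the median over named probe sets) and were tested.

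A gene was called higher or lower at an adjusted p under 0.05 in limma, a linear model fitted across all genes, with Benjamini-Hochberg adjustment over the 9864. The labels do not say that any arrays came from separate cultures, so the p-values measure a difference against the siRNA-by-time variation between single arrays only. The siRNA sequences and the time from transfection to harvest are not given in what was used here. Effects of losing the Cugbp1 protein and other effects of this siRNA cannot be told apart with a single knockdown of the gene. The 0 h arrays were taken before transcription was blocked and the later arrays after it, so the averaged level joins RNA at steady state with RNA that is decaying. In such bulk RNA fewer cells of a kind and less RNA per cell cannot be told apart.

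Cugbp1, whose current gene symbol is Celf1, encodes an RNA-binding protein of the CELF family that binds GU-rich sequences. In the nucleus it takes part in the choice of alternative exons, and in the cytoplasm it can promote removal of the poly(A) tail and decay of the mRNAs it binds, or change their translation. It and the Mbnl proteins act on many of the same muscle exons, often in opposite directions, and both are known for their part in myotonic dystrophy.

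The knockdown was seen at each time. Celf1 stood at log2 11.66, 11.74 and 11.73 on the control arrays at 0, 2.5 and 5 h, and at 9.96, 9.57 and 9.52 on the Cugbp1 siRNA arrays. All Cugbp1 siRNA arrays lay far below all control arrays, and the other Celf1 probe set, a dimmer one, gave nearly the same difference (−2.00 against −2.03 ± 0.09, SE, n = 3 arrays per siRNA). No other measured member of the CELF and MBNL family was called: Celf2 differed by 0.02, Celf4 by −0.01, Celf5 by −0.04, Mbnl1 by −0.07 and Mbnl2 by −0.01, while Mbnl3 stood at −0.16 (limma adjusted p = 0.053). Celf3 and Celf6 lay under the filter.

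The cells carried the markers of their line. All 10 myoblast markers, among them Myod1, Myf5, Des and Cdh15, passed the filter, and their summed intensity was 30666 to 30996 on the control arrays and 30225 to 31405 on the Cugbp1 siRNA arrays. Of 9 macrophage and leukocyte markers 2 passed, with Ptprc, Adgre1 and Csf1r under the filter. The sums over all 9, passed or not, were 961 to 983 against 957 to 1051. Of 6 fibroblast markers 4 passed, and Thy1 and Lum lay under the filter. The sum over all 6, passed or not, did not overlap between the groups. It was 5010 to 5379 on the control arrays and 4643 to 4903 on the Cugbp1 siRNA arrays. Col1a1 and Dcn were lower and Pdgfra was higher. Each of these 3 calls was lost without the 2.5 h arrays (adjusted p of 0.183, 0.0867 and 0.132). The sums of the adipocyte, epithelial and osteoblast markers overlapped between the groups. The median intensity of the 6 arrays lay between 104.9 and 109.6. Control and Cugbp1 siRNA arrays of the same time correlated across probe sets at 0.9951 to 0.9953.

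Differences were numerous and small. Of the 9864 genes 1039 were higher (10.5%) and 855 lower (8.67%) with Cugbp1 siRNA, together 19.2%. By more than 0.25 on the log2 scale 402 were higher and 368 lower, by more than 0.5 63 and 73, and by more than 1 only 9 and 7. The median difference over all genes was 0.0109 and the median absolute difference 0.0747. Each of the 1894 called genes differed in the same direction at all 3 times, as did 5416 of all genes tested (54.9%). The counts fell most without the 2.5 h arrays, to 106 higher and 130 lower. They were 460 and 510 without the 5 h arrays, and 758 and 526 without the 0 h arrays. Leaving out a time also changes the variation that a difference is measured against, and the part of that in the lost calls was not tested. With 1 array alone left out, the 2.5 h control array gave the lowest counts, 371 and 371, and the 2.5 h Cugbp1 siRNA array 373 and 386. Calls were thus lost across all genes in these settings. The counts given below for lists with arrays left out are to be read beside these. Setting equal medians of the tested genes on all arrays turned the split from 1039 higher and 855 lower to 897 and 1027. Of 3974 probe sets above the filter without a single gene symbol 77 were called (1.94%), 26 higher (0.654%) and 51 lower (1.28%), adjusted over their own set.

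**Figure D1:**
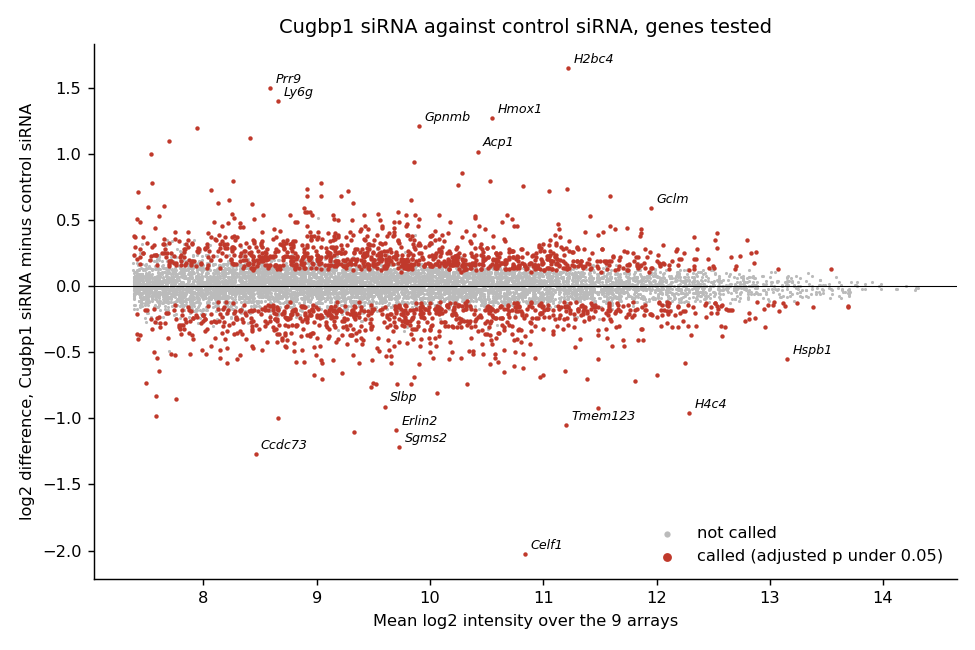
Log2 difference between Cugbp1 siRNA and control siRNA (vertical axis, averaged over the 3 times) against the mean log2 intensity over the 9 arrays (horizontal axis) for the 9864 genes tested; red points are the 1894 called genes. Celf1 lies lowest at −2.03, H2bc4 highest at 1.65, and most called genes lie within 0.5 of 0.

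Many genes of antioxidant defence and of haem and iron handling were higher with Cugbp1 siRNA. Many genes of this list are known targets of the transcription factor Nrf2 (gene Nfe2l2), which binds antioxidant response elements in their regulatory regions together with small Maf proteins, and which Keap1 targets for degradation while Bach1 competes for the same elements. Of 37 measured genes 18 were higher (48.6%, against 10.5% of all genes) and 1 lower, and the median difference was 0.12 against 0.01 over all genes. The median was 0.098 at 0 h, before transcription was blocked, 0.119 at 2.5 h and 0.138 at 5 h. Over all genes tested it also rose, from −0.012 at 0 h to 0.007 at 2.5 h and 0.031 at 5 h. Of the 37 genes 25 were higher with Cugbp1 siRNA at each of the 3 times, as were 2982 of all 9864. Without the 2.5 h arrays 7 were called higher, where 106 of all 9864 genes were. With 1 of the 6 arrays left out it was 11 to 14, where all genes gave 371 to 844. It was 11 without the 2.5 h control array or the 2.5 h Cugbp1 siRNA array, where all genes gave 371 and 373.

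Hmox1, which encodes the haem-degrading enzyme heme oxygenase, led the group. It stood at log2 10.00, 9.81 and 9.76 with control siRNA and at 11.07, 11.06 and 11.25 with Cugbp1 siRNA. The groups did not overlap, and the gap widened from 1.07 at 0 h to 1.49 at 5 h as the control level went down and the Cugbp1 siRNA level did not. The mean difference was 1.27 with an SE of 0.09 over 3 arrays per siRNA (limma adjusted p = 0.000125), a 2.42-fold higher level.

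Glutathione synthesis was represented at its import step and at its rate-limiting step. Slc7a11, the cystine importer that supplies cysteine for glutathione, stood at 9.75, 9.94 and 9.95 with control siRNA and at 10.67, 10.76 and 10.79 with Cugbp1 siRNA (0.86 ± 0.04, limma adjusted p = 4.24e-05). Every Cugbp1 siRNA array lay above every control array by a similar amount. Gclm, the modifier subunit of glutamate-cysteine ligase, stood at 11.65, 11.82 and 11.86 against 12.25, 12.41 and 12.45, an almost constant gap (0.59 ± 0.04, adjusted p = 0.00018). Gclc, the catalytic subunit of that enzyme, stood at 11.19, 10.99 and 10.45 against 11.58, 11.41 and 11.07. Its levels fell with time in both groups, and the difference was 0.47 ± 0.06 (adjusted p = 0.00169, and 0.0522 without the 2.5 h arrays).

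The other rises covered detoxification, the pentose phosphate pathway that supplies NADPH, and haem. Apart from Slc40a1 these genes, like Gclm and Gclc, were picked after their values were seen. Ephx1, the microsomal epoxide hydrolase, was higher by 0.46, Cat, the hydrogen peroxide degrading catalase, by 0.40 and Gstm1, a glutathione transferase, by 0.37. In the pentose phosphate pathway Tkt was higher by 0.51 ± 0.04 and Pgd by 0.23. In haem and iron handling, Blvrb, which reduces biliverdin, was higher by 0.43, Alas1, the first enzyme of haem synthesis, by 0.36 and Tfrc, the transferrin receptor, by 0.32. Slc40a1, the iron exporter ferroportin, was higher by 0.78 ± 0.15, but its control mean of 6.97 lay under the filter value. Without the 2.5 h arrays adjusted p was 0.068 for Gstm1, 0.104 for Pgd, 0.103 for Tfrc, 0.156 for Alas1 and 0.151 for Slc40a1. Slc40a1 was also lost without the 2.5 h control array (0.0601) or the 2.5 h Cugbp1 siRNA array (0.0606). Alas1 was lost without the 2.5 h control array (0.0716), the 2.5 h or 5 h Cugbp1 siRNA array (0.0616 and 0.0578) or all 5 h arrays (0.0656).

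Several genes that are widely used as readouts of the same factor, picked here after their values were seen, did not pass. Nqo1, a quinone reductase, differed by 0.04 ± 0.04, Srxn1, sulfiredoxin, by 0.07 ± 0.05, Gsr, glutathione reductase, by 0.08 ± 0.04 and Prdx1, a peroxiredoxin, by 0.02 ± 0.04. The ferritin chains Fth1 and Ftl1 differed by 0.02 and 0.03. The regulators themselves were not called either: Nfe2l2 stood at −0.05 ± 0.04, Keap1 at −0.02 ± 0.05 and Bach1 at −0.13 ± 0.12. The 1 member called lower was Abcc1, an exporter of glutathione conjugates (−0.25 ± 0.03, adjusted p = 0.00285, and 0.0838 without the 2.5 h arrays). The related transporter Abcc4, outside the list and among the 25 largest rises, was higher by 0.72 ± 0.05, and Adh7, an alcohol dehydrogenase also among them, by 0.74 ± 0.04.

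**Figure D2:**
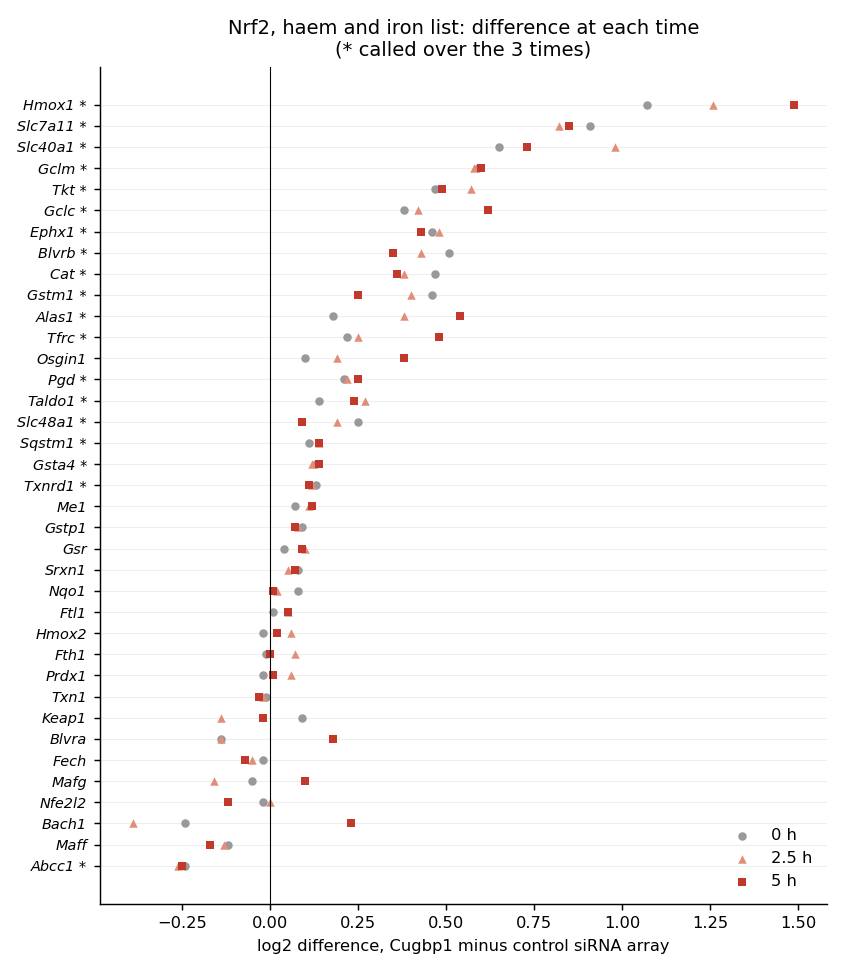
Log2 difference between the Cugbp1 siRNA and the control siRNA array (horizontal axis) at 0, 2.5 and 5 h for the 37 measured genes of the Nrf2, haem and iron list, 1 gene per line, ordered by the mean difference; an asterisk marks a gene called over the 3 times. Hmox1, Slc7a11 and Slc40a1 lie highest, 25 genes lie above 0 at each time, and Bach1 lies on both sides of 0.

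Promoters of the list were compared by their letters. The core of the antioxidant response element, TGACNNNGC, was searched on both strands of the promoter windows of RefSeq (build GRCm38.p6, 250 bases before to 50 after a start). Of the 29 tested members with a window 10 held a match (34.5%), against 16.8% of the 7987 tested genes with a window and 14.0% of all 27025 genes. Among the members called higher 3 of 13 held one (23.1%), and among the others 7 of 16 (43.8%). Windows of 3 members with a match are shown, picked after the search, since they place the same core beside a rise and beside no call. Each is written 5′ to 3′ on the gene's strand with the match in capitals.
Gclm, which was higher, chr3:122245307-122245606, plus strand, match on the opposite strand from position −134: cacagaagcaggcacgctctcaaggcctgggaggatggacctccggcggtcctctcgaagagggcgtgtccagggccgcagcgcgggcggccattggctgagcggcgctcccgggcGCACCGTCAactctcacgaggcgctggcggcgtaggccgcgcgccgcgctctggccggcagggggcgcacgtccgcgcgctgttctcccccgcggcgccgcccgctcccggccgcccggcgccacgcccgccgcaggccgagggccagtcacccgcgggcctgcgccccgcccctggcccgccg
Prdx1, not called, chr4:116685349-116685648, plus strand, match on the opposite strand from position −133: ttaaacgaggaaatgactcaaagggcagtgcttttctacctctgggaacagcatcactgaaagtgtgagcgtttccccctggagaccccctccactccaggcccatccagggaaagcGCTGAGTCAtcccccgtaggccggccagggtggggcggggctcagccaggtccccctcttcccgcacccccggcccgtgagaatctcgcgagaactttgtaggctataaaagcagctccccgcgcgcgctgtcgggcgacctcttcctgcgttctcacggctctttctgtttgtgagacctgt
Me1, not called (0.10, adjusted p = 0.0858), chr9:86695865-86696164, minus strand, match from position −6: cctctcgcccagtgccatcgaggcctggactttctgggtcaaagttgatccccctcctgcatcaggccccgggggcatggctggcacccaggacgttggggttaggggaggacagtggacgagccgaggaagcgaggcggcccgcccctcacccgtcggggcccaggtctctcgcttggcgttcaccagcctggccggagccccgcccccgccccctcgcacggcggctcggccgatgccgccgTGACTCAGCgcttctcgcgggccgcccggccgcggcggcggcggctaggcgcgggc
Gclm and Prdx1 hold the core at nearly the same distance from their starts, and only the first was called. The matches of Prdx1 and Me1, TGACTCAGC, also contain the AP-1 core TGACTCA. These windows leave out distal elements, and a match is a description of the letters and not of binding.

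Lysosomal genes formed a further group of rises. Of 36 measured genes of lysosomal enzymes, membrane proteins and the proton pump 10 were higher (27.8%, against 10.5%) and 0 lower, with 0 lower also at an unadjusted p under 0.05; the median was 0.05. Gpnmb, a lysosomal and melanosomal membrane glycoprotein, stood at 8.58, 8.98 and 9.08 with control siRNA and at 9.84, 10.20 and 10.24 with Cugbp1 siRNA. Its levels rose along the time course in both groups without overlap, at a difference of 1.21 ± 0.08 (limma adjusted p = 8.62e-05). Lipa, the lysosomal acid lipase, was higher by 0.35 ± 0.04 with the same gap of 0.35 at each time. Gla, alpha-galactosidase A, was higher by 0.36 ± 0.04 and Ctsd, cathepsin D, by 0.22 ± 0.04. Npc1, the cholesterol exporter of the lysosome, was higher by 0.22 and Atp6v1b2, a subunit of the proton pump, by 0.26. Ctsd, Npc1 and Atp6v1b2 were picked after their values were seen. Leaving out the 2.5 h arrays left 2 of the list called higher, and adjusted p was then 0.0551 for Gla, 0.133 for Ctsd, 0.108 for Npc1 and 0.12 for Atp6v1b2. Leaving out the 5 h Cugbp1 siRNA array or all 5 h arrays left 6.

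Single genes of the Notch pathway changed in both directions. Notch receptors are cleaved when a ligand on a neighbouring cell binds them, and the released intracellular part activates Hes and Hey genes through the DNA-binding protein Rbpj. Of 26 measured genes 6 were higher (23.1%, against 10.5% of all genes) and 3 lower (11.5%, against 8.67%), with a median of 0.02. The receptor Notch1 stood at 10.47, 9.79 and 9.57 with control siRNA and at 11.18, 10.64 and 10.33 with Cugbp1 siRNA. Both groups fell in parallel over time, so that the 0 h control array lay above the 5 h Cugbp1 siRNA array, while at every time the Cugbp1 siRNA array was the higher (0.77 ± 0.05, limma adjusted p = 7.45e-05). The ligand Jag1 stood at 8.09, 7.78 and 7.45 against 8.82, 8.22 and 8.24, higher at each time (0.65 ± 0.06, adjusted p = 0.000732).

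On the lower side stood Rbpj itself, at 10.77, 10.45 and 10.38 with control siRNA and 10.28, 9.91 and 9.78 with Cugbp1 siRNA. Each Cugbp1 siRNA array lay below all control arrays, a difference of −0.54 ± 0.04 (limma adjusted p = 0.000207). Lfng, a glycosyltransferase that modifies Notch receptors, was lower by 0.30 (−0.30 ± 0.04), and Numb, an inhibitor of Notch that is shared out unequally at division, stood at −0.26 ± 0.06. Among target genes Hey1 was higher by 0.54 ± 0.10. Dtx4, a ubiquitin ligase of the pathway, was higher by 0.38 ± 0.06 and was picked after its value was seen. Leaving out the 2.5 h arrays left 2 genes of the pathway higher and 2 lower, and Hey1 (adjusted p = 0.0667), Dtx4 (0.11) and Numb (0.127) were lost. Hey1 was also lost without the 2.5 h Cugbp1 siRNA array (0.0536) or all 0 h arrays (0.0589). Numb was lost without the 0 h control (0.0537), 2.5 h control (0.0682) or 0 h Cugbp1 siRNA array (0.0534) or all 0 h arrays (0.0666). With the 2.5 h control array, the 2.5 h Cugbp1 siRNA array or all 5 h arrays left out 4 were higher, and with the 0 h or 2.5 h control array, the 0 h Cugbp1 siRNA array or all 0 h arrays left out 2 were lower.

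**Figure D3:**
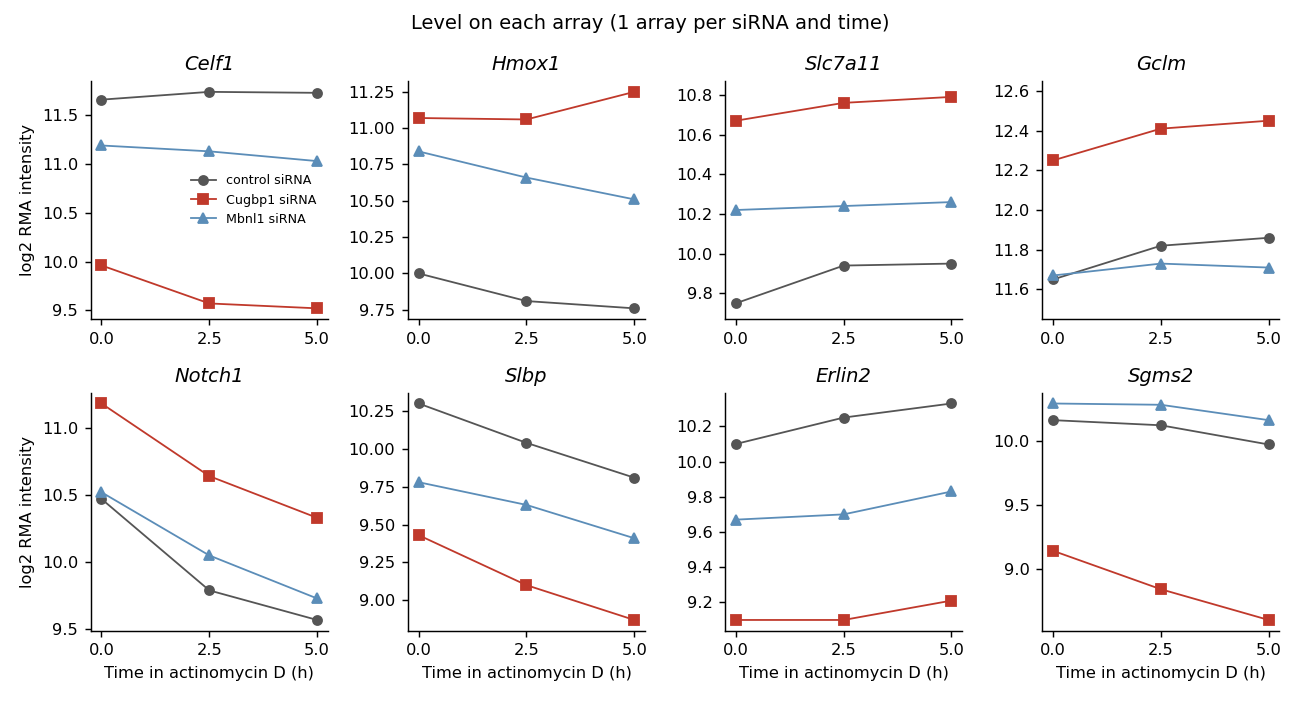
Log2 RMA intensity (vertical axes, scaled per gene) at 0, 2.5 and 5 h in actinomycin D (horizontal axes) for 8 genes, with 1 point per array; grey circles are control siRNA, red squares Cugbp1 siRNA and blue triangles Mbnl1 siRNA. In each panel the Cugbp1 siRNA line runs on 1 side of the control line at all 3 times: below it for Celf1, Slbp, Erlin2 and Sgms2 and above it for Hmox1, Slc7a11, Gclm and Notch1.

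Both erlin genes were lower. Erlin1 and Erlin2 form a complex of the endoplasmic reticulum membrane that delivers inositol trisphosphate receptors for degradation and restrains the activation of the sterol regulator SREBP. Erlin2 stood at 10.10, 10.25 and 10.33 with control siRNA and at 9.10, 9.10 and 9.21 with Cugbp1 siRNA, about a full unit apart at each time (−1.09 ± 0.04, limma adjusted p = 1.6e-05). Erlin1 stood at 9.73, 9.74 and 9.83 against 9.21, 9.27 and 9.36, again without overlap (−0.49 ± 0.04, adjusted p = 0.000529). They were the 2 called among 23 measured genes of ER-associated degradation (8.70% lower, against 8.67% of all genes; 0 higher, and 2 higher at an unadjusted p under 0.05), and the calls held in each alternative in which the gene was tested, 18 for Erlin2 and 17 for Erlin1. Of 30 genes of cholesterol and fatty acid synthesis 5 were higher (16.7%, against 10.5%) and 4 lower (13.3%, against 8.67%), with Insig1, which retains SREBP, higher by 0.31 ± 0.04 and Hmgcs1, an early enzyme of the pathway, at −0.40 ± 0.04. These counts shrank to 1 and 1 without the 2.5 h arrays, where Insig1 was lost (adjusted p = 0.0823). Removing 1 array left 2 higher for each but the 0 h control array, and 2 lower for the 2.5 h array of either siRNA; removing all 5 h or all 0 h arrays left 2 and 3 higher.

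The sphingolipid genes were led by 1 large fall. Sgms2, which makes sphingomyelin at the plasma membrane, stood at 10.16, 10.12 and 9.97 with control siRNA and at 9.14, 8.84 and 8.60 with Cugbp1 siRNA. The groups did not overlap, with differences of −1.02 at 0 h, −1.28 at 2.5 h and −1.37 at 5 h (mean −1.22 ± 0.07, limma adjusted p = 7.87e-05). Samd8, the related ceramide phosphoethanolamine synthase, was lower by less (−0.34 ± 0.04, adjusted p = 0.00126, and 0.0608 without the 2.5 h arrays). In all 4 of 30 measured sphingolipid genes were lower (13.3%, against 8.67%) and 2 higher. Of the 4 falls 3 were not called without the 2.5 h arrays. The rises numbered 0 or 1 with any 1 of the 6 arrays or any time left out.

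Of 23 measured nuclear envelope genes 6 were lower (26.1%, against 8.67%) and 1 higher, with a median of −0.07. The 6 were Tor1aip2, Tor1a, Nemp1 (−0.31), Tor3a (−0.20), Lbr (−0.17) and Tor1aip1 (−0.16), the last 3 named after their values were seen. Torsins are ATPases of the nuclear envelope and endoplasmic reticulum that need the membrane proteins Tor1aip1 or Tor1aip2 for their activity. The brightest probe set of Tor1aip2 stood at 9.95, 9.88 and 9.59 with control siRNA and at 8.95, 8.49 and 8.67 with Cugbp1 siRNA (−1.10 ± 0.08, limma adjusted p = 0.000207), but 2 dimmer probe sets of the gene differed by only −0.26 and −0.08 and were not called. Probe sets of this gene therefore disagree, and a change in 1 of its transcripts and a change in all of them cannot be told apart here. Tor1a, torsin A, stood at 9.86, 9.82 and 9.68 against 9.62, 9.32 and 9.17 (−0.41 ± 0.06, adjusted p = 0.00445). All Cugbp1 siRNA arrays of Tor1a lay below all control arrays. When the 2.5 h arrays were left out only Tor1aip2 was called lower, and Tor1a had an adjusted p of 0.103 and Nemp1 of 0.108; Tor3a, Lbr and Tor1aip1 were lost in 9, 10 and 11 of the alternatives. When 1 array was left out it was 3 for the 0 h or 2.5 h array of either siRNA and 4 for the others, and 3 or 4 without the 5 h or the 0 h arrays.

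Many proteases of the matrix and their inhibitors were lower. Of 24 measured genes 11 were lower (45.8%, against 8.67%), 2 higher (8.33%, against 10.5%) and 11 not called, and the median was −0.16. At each of the 3 times 14 of the 24 were lower, as were 2434 of all 9864 genes tested. The fibroblast marker sum also lay lower with Cugbp1 siRNA (4643 to 4903, against 5010 to 5379), and its part in these falls was not tested. Plau, the urokinase that activates plasminogen, stood at 10.92, 10.78 and 10.64 with control siRNA and at 10.39, 10.19 and 10.23 with Cugbp1 siRNA, without overlap (−0.51 ± 0.05, limma adjusted p = 0.000921). Its receptor Plaur was lower by 0.30 on average (−0.30 ± 0.05) and Plat, the tissue plasminogen activator, by the same (−0.30 ± 0.04). Among the metalloproteinases of the Adamts family Adamts6 stood at −0.57 ± 0.08, and Adamts7 and Adamts14, picked after their values were seen like Plat, at −0.26 and −0.25. On the higher side were Serpinf1, a secreted serpin without known protease inhibition (0.22 ± 0.04), and Mmp14, the membrane-type collagenase (0.19 ± 0.04). In the fit without the 2.5 h arrays 3 of the group were called lower. Plaur (adjusted p = 0.104), Plat (0.0823), Adamts6 (0.0609), Adamts7 (0.0992), Adamts14 (0.111) and Serpinf1 (0.101) were then not called. Mmp14 was lost without any 1 of the 2.5 h and 5 h arrays, at adjusted p of 0.0661 to 0.104, and without all arrays of the 0 h (0.0535), 2.5 h (0.163) or 5 h time (0.0824).

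Other extracellular matrix proteins, structural or not and listed apart from the collagens, changed in both directions. Of 30 measured genes 6 were higher (20.0%, against 10.5%) and 8 lower (26.7%, against 8.67%), with a median of −0.06; the part of the lower fibroblast marker sum in the falls was not tested. The laminin chains Lama2, Lamc1 and Lamb1, which build basement membranes around muscle fibres, were higher by 0.39 ± 0.04, 0.28 ± 0.04 and 0.21 ± 0.04. For Lama2 the control arrays read 9.37, 9.33 and 9.28 and the Cugbp1 siRNA arrays 9.67, 9.75 and 9.72, without overlap. Tnc, the adhesion-modulating tenascin C, was lower at each time (−0.45 ± 0.04, limma adjusted p = 0.000352). Ccn2, a connective tissue growth factor, stood at −0.56 ± 0.09 and Lox, which cross-links collagen, at −0.31 ± 0.05. In the absence of the 2.5 h arrays 1 gene was higher and 1 lower, and Lamc1 (0.101), Ccn2 (0.113) and Lox (0.071) were lost. Ccn2 was lost without the 0 h arrays too (0.0516). Lamb1, picked after its value was seen, was lost without any 1 of the 2.5 h and 5 h arrays, at adjusted p of 0.0513 to 0.0839, and without all 2.5 h (0.188) or 5 h arrays (0.0749). With 1 array left out 3 to 6 were higher, 3 for both 2.5 h arrays and the 5 h control array and 4 for the 5 h Cugbp1 siRNA array. The falls numbered 4 to 6, 4 without either 5 h array and 5 without the 2.5 h control array, and without all 5 h arrays 3 were higher and 4 lower.

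**Figure D4:**
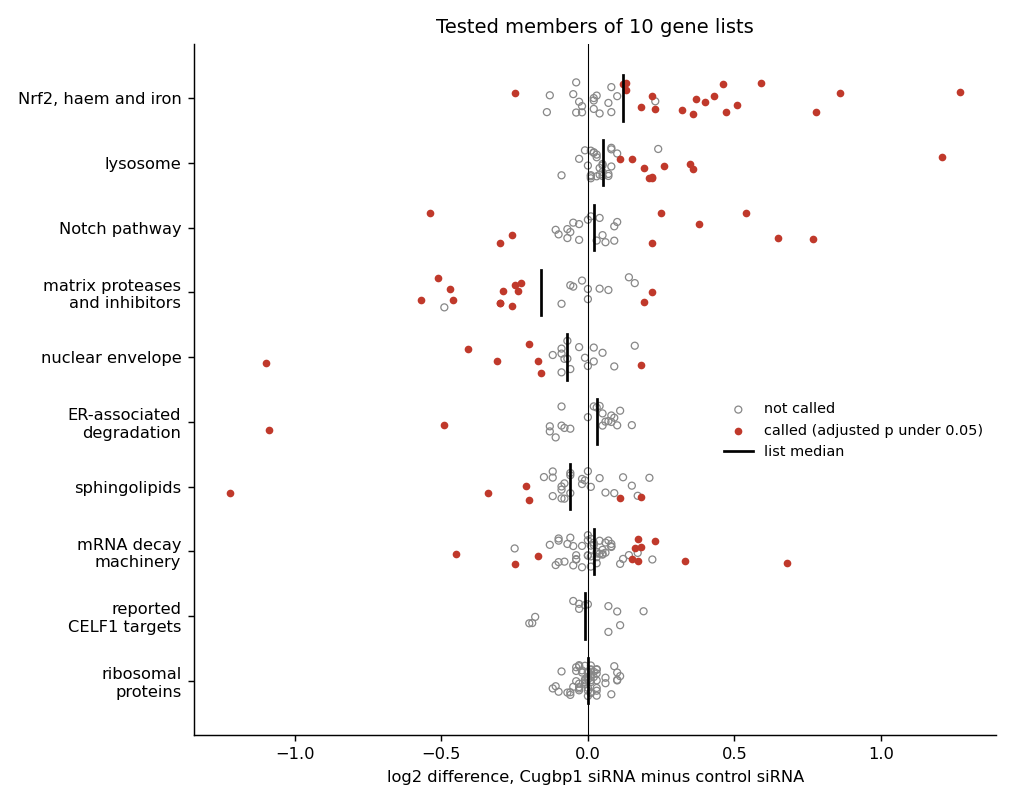
Log2 difference between Cugbp1 siRNA and control siRNA (horizontal axis) for the tested members of 10 gene lists (vertical axis), with 1 point per gene spread vertically for visibility; filled red points are called genes and black bars the list medians. The Nrf2, haem and iron genes extend to the right, matrix proteases and inhibitors to the left, and reported CELF1 targets and ribosomal proteins hold 0 called genes.

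A few histone genes changed, as did Slbp, which processes their mRNAs. Of 14 measured histone genes 2 were higher (14.3%, against 10.5%) and 2 lower (14.3%, against 8.67%), with a median of 0.003. Replication-dependent histone mRNAs end in a stem-loop in place of a poly(A) tail, and Slbp binds that stem-loop. Slbp stood at 10.30, 10.04 and 9.81 with control siRNA and at 9.43, 9.10 and 8.87 with Cugbp1 siRNA. It declined in both groups, and all Cugbp1 siRNA arrays lay below all control arrays (−0.91 ± 0.05, limma adjusted p = 4.24e-05); its other probe set gave −0.91 too. H2bc4, an H2B gene, stood at 10.31, 10.28 and 10.28 against 11.86, 11.93 and 12.04, the largest rise in the comparison (1.65 ± 0.05). H1f2, a linker histone, was higher by 0.76 ± 0.10, with differences of 0.47, 0.76 and 1.07 at 0, 2.5 and 5 h. H4c4 differed by −0.15 at 0 h, −1.18 at 2.5 h and −1.55 at 5 h, a mean of −0.96 ± 0.25 (adjusted p = 0.0314). Dropping the 2.5 h arrays ended the calls of H1f2 (0.064) and H4c4 (0.26). H4c4 was also lost without the 2.5 h or 5 h control array (0.133 and 0.124), the 2.5 h or 5 h Cugbp1 siRNA array (0.136 and 0.0935) or all 5 h arrays (0.126). The falls among histone genes numbered 0 in each of those settings, 1 without the 0 h control array and 4 without the 0 h Cugbp1 siRNA array or all 0 h arrays, and near-identical histone genes may share probe signal.

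Of the machinery that degrades mRNA 8 of 57 measured genes were higher (14.0%, against 10.5%) and 3 lower (5.26%, against 8.67%). Xrn1, the exonuclease that degrades decapped mRNA from its 5′ end, stood at 8.81, 8.73 and 8.69 with control siRNA and at 9.35, 9.48 and 9.42 with Cugbp1 siRNA. The groups did not overlap, and its call held in the 17 alternatives in which it was tested. The other rises were smaller: Lsm7, part of a ring that binds the 3′ end of mRNAs marked for decapping, was higher by 0.33 ± 0.04, and 5 subunits or cofactors of the exosome and its relatives (Exosc3, Exosc4, Exosc5, Exosc9 and Dis3l) lay between 0.15 and 0.23. The exosome genes were named after their values were seen. Of these rises only that of Xrn1 was called without the 2.5 h arrays, where Lsm7 had an adjusted p of 0.0669. With 1 array left out 2 genes were called higher for each 2.5 h and 5 h array and 4 for the 0 h Cugbp1 siRNA array, and 4 and 2 without the 0 h and the 5 h arrays; falls then numbered 0 to 2. Each of the 5 exosome genes lost its call without the 2.5 h control array, at adjusted p of 0.0601 to 0.2.

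Messenger RNAs that other studies have linked to CELF1 gave no call. Of 13 measured genes of that list 0 were called, against 19.2% of all genes, and the median was −0.01. At an unadjusted p under 0.05, 3 were lower and 0 higher. Of all 9864 genes 1451 were lower and 1824 higher at that threshold. With only 13 genes, the lack of calls does not set the list apart from other genes. The nearest to the threshold were Tnfrsf1b, a TNF receptor (−0.20 ± 0.06, limma adjusted p = 0.0539), and Smad7, an inhibitor of TGF-beta signalling (−0.19 ± 0.06, adjusted p = 0.0607). Junb (−0.03 ± 0.11), Myc (0.10 ± 0.10), Myod1 (0.11 ± 0.05), Mef2a (0.07 ± 0.04) and Ccnd1 (−0.01 ± 0.03) were not called. With equal medians of the tested genes on all arrays 2 of the list were lower, as were 2 without the 5 h arrays and 1 without the 5 h array of either siRNA. Cytosolic ribosomal protein genes had 0 of 57 called, against 19.2% of all genes. At an unadjusted p under 0.05, 2 of them were higher and 1 lower, and their median was 0.001.

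Few cell cycle genes were higher. Of 57 genes of mitosis and the kinetochore 2 were higher (3.51%, against 10.5% of all genes) and 5 lower (8.77%, against 8.67%). Of 50 DNA replication genes 2 were higher (4.0%) and 6 lower (12%). The falls numbered 2 or 3 in mitosis and 0 to 3 in replication with any 1 of the 6 arrays left out, and 1 and 0 without the 2.5 h arrays; the rises numbered 0 to 2 in all these settings. Plk1, the kinase that drives entry into mitosis, stood at 12.09, 11.88 and 11.46 with control siRNA and at 11.73, 11.17 and 10.44 with Cugbp1 siRNA. It fell over time in both groups and more so with Cugbp1 siRNA, with differences of −0.37, −0.71 and −1.01 (mean −0.70 ± 0.12, limma adjusted p = 0.00727, and 0.118 without the 2.5 h arrays). Cdc25a, a phosphatase that activates cyclin-dependent kinases, was lower as well (−0.45 ± 0.05, adjusted p = 0.000798).

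Hspb1 and Cryab, both small heat shock proteins, were lower. Hspb1, a chaperone that binds actin filaments and unfolded proteins, stood at 13.25, 13.36 and 13.40 with control siRNA and at 12.69, 12.80 and 12.86 with Cugbp1 siRNA, a constant gap in a very bright transcript (−0.55 ± 0.03, limma adjusted p = 7.45e-05; −0.56 in its other probe set). Cryab, alpha-B-crystallin, was lower by about the same at each time (−0.30 ± 0.03, adjusted p = 0.00102, and 0.0532 when the 2.5 h arrays were dropped). These were the 2 called of 18 heat shock genes and chaperones (11.1% lower, against 8.67% of all genes), of which 0 were higher and 2 were higher at an unadjusted p under 0.05.

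Among single genes with large changes, Acp1, a low molecular weight tyrosine phosphatase, was higher in each of its 5 probe sets, by 0.85 to 1.02. Its brightest probe set stood at 9.78, 9.77 and 9.77 with control siRNA and at 10.61, 10.82 and 10.96 with Cugbp1 siRNA, with no overlap (1.02 ± 0.07, limma adjusted p = 0.000126). Htr1b, a serotonin receptor, was higher by 0.94 ± 0.05 and Nmnat2, an enzyme of NAD synthesis, by 0.80 ± 0.03. Il1f9, a cytokine of the interleukin-1 family, was higher by 1.12 ± 0.12. On the lower side, Ehd4, an ATPase of endosome recycling, stood at 11.78, 11.77 and 11.74 against 11.16, 10.80 and 10.59 (−0.92 ± 0.10, adjusted p = 0.000958). The control arrays were flat while the Cugbp1 siRNA arrays declined. Stau2, an RNA-binding protein of mRNA transport, was lower (−0.74 ± 0.04), as were the surface proteins Cd55, a complement regulator (−0.73 ± 0.04), and Cd80, a T-cell costimulator (−0.69 ± 0.07). Cd55 was dim, and its mean of 6.77 with Cugbp1 siRNA lay under the filter value.

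The second knockdown was compared with the first. Cugbp1 siRNA and Mbnl1 siRNA were each compared with the same control arrays. Their differences from control are therefore set side by side here without a measure of likeness. The difference in the direct contrast of the 2 knockdowns is taken between their own arrays. Its SE and p-values come from the fit over all arrays, control arrays included. Apart from chosen regulators, genes were named by their difference between Cugbp1 siRNA and control siRNA, some after their values were seen. The direct contrast shares those Cugbp1 siRNA arrays, so it is no independent check of that difference. The genes given here were picked from the named ones with their values under both siRNAs known. How many called genes go the same or opposite ways was not counted. The p-values of the picked genes in the direct contrast are therefore descriptive. In that contrast 3295 genes were higher (33.4%) and 2268 lower (23.0%) with Cugbp1 siRNA, 56.4% together; with equal medians of the tested genes the majority turned, to 2388 higher and 3285 lower. Mbnl1 siRNA lowered Celf1 as well, by less than Cugbp1 siRNA did: it differed from control by −0.59 ± 0.09 (limma adjusted p = 0.000931) with Mbnl1 siRNA and by −2.03 with Cugbp1 siRNA, and the direct contrast was −1.43 ± 0.09. Gclm was higher by 0.59 with Cugbp1 siRNA and differed by −0.08 with Mbnl1 siRNA, and the direct contrast was 0.67 ± 0.04 (limma adjusted p = 1.21e-05). Tkt gave 0.51 and −0.02 (0.53 ± 0.04, adjusted p = 1.89e-05). Hmox1 was higher in both, by 1.27 and 0.81, and more so with Cugbp1 siRNA (0.46 ± 0.09, adjusted p = 0.00233). Of the Nrf2, haem and iron list 17 of 37 were higher (45.9%, against 33.4%) and 7 lower (18.9%, against 23.0%) in the direct contrast. The list also held rises with Mbnl1 siRNA against control. There 14 of the 37 were higher (37.8%, against 24.0% of all genes) and 6 lower (against 31.0% of all genes lower). Slc7a11 was higher in both, by 0.86 with Cugbp1 siRNA and 0.36 with Mbnl1 siRNA.

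Sgms2 differed from control by −1.22 with Cugbp1 siRNA and by 0.16 with Mbnl1 siRNA, with a direct contrast of −1.38 ± 0.07 (limma adjusted p = 6.28e-06). Hspb1 gave −0.55 and 0.01 (−0.56 ± 0.03, adjusted p = 8.26e-06). Erlin2 was lower in both, at −1.09 and −0.49, and further with Cugbp1 siRNA (−0.59 ± 0.04, adjusted p = 1.58e-05). Several genes went opposite ways. Plau stood at −0.51 with Cugbp1 siRNA and 0.63 with Mbnl1 siRNA (direct contrast −1.13 ± 0.05), Cd55 at −0.73 and 0.70 (−1.44 ± 0.04), and Cdh15, the muscle cadherin, at 0.28 and −0.58 (0.86 ± 0.04), each with adjusted p of 5.06e-06 or less in the direct contrast. The rise of Cdh15 against control was lost without the 2.5 h arrays (0.105). More of the lysosomal genes were higher with Mbnl1 siRNA than with Cugbp1 siRNA, each against control. With Mbnl1 siRNA 27 of 36 were higher, against 24.0% of all genes. Of all genes 31.0% were lower and 55.0% called with Mbnl1 siRNA. With Cugbp1 siRNA 10 were higher (27.8%, against 10.5% of all genes). In the direct contrast 26 were lower with Cugbp1 siRNA (72.2%, against 23.0% of all genes). In the same contrast 3 were higher (8.33%, against 33.4% of all genes). Gpnmb was higher by 1.21 with Cugbp1 siRNA and 1.86 with Mbnl1 siRNA. Jag1 (0.65 and 0.72) and Acp1 (1.02 and 0.92) were higher in both, and the direct contrasts of −0.06 ± 0.06 (adjusted p = 0.441) and 0.11 ± 0.07 (adjusted p = 0.224) did not pass.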

How the data were processed

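Total RNA of C2C12 cells was hybridised to Affymetrix whole-transcript arrays, 1 per siRNA and time. The deposited values are RMA intensity on a linear scale, made with Affymetrix Expression Console per the submitters' processing notes; no source used here gives versions. RMA gives all arrays 1 distribution of values, so differences are relative to the other transcripts on an array. Log2 was taken here. Of 35556 probe sets, 21789 have 1 gene symbol; per gene the brightest was used if its mean log2 reached 7.385 (intensity 167.1, the 50th percentile). Levels were fitted with limma 3.58.1 in R 4.3.3 on siRNA and time over all 9 arrays (4 residual degrees of freedom), and the fit was tested on simulated data. The number of arrays limits the precision. Genes were named by rule: among called genes with the same sign at each time, the 25 that rose most and the 25 that fell most, the 3 largest called changes per list and direction, and chosen regulators. The members and the 38 lists were chosen with earlier results of these data known, and no list was tested as a set. Alternatives changed the arrays, time block, filter, scaling, pseudocount, variance prior, probe set choice and time points.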

Additional observations from a re-analysis of the deposited data

How the results depend on the processing

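Higher and lower counts for Cugbp1 siRNA against control, 1039 and 855, became 67 and 88 with no time block, 513 and 456 with no filter (19938 genes tested), 758 and 526 without the 0 h arrays, 106 and 130 without the 2.5 h arrays and 460 and 510 without the 5 h arrays. With any 1 of the 6 arrays left out the higher count was 371 to 844 and the lower count 371 to 575. The other settings, among them equal medians of the tested genes (897 and 1027), equal ribosomal protein medians (1017 and 717) and the 6 arrays alone (1053 and 889), stayed within 1.5 times; the equal medians turned the majority from higher to lower. Against Mbnl1 siRNA, 3295 and 2268 became 2388 and 3285 with equal medians of the tested genes, which turned the majority, 1290 and 823 with no time block and 1833 and 1340 with the 75th percentile filter, and the lower count was 1475 without the 2.5 h arrays. The 18 Nrf2, haem and iron genes called higher became 4 with no time block and 7 without the 2.5 h arrays, and were 11 to 14 with 1 array left out. The cause was not tested. Of 175 named genes that were called, 128 lost the call with no time block, 115 without the 2.5 h arrays and 58 with no filter. In the 18 settings 0 turned direction. Each called gene had the same sign at all 3 times, so leaving out a time could not turn its direction. The settings also reuse the same arrays, so the lack of turns is no independent check. The main fit pairs arrays by time through its time term. No further pairing was possible because no replicate number in the labels pairs samples beyond the time.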

Other observations

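Of 25 p53 targets 6 were higher (24.0%, against 10.5% of all genes) and 3 lower (12%, against 8.67%), with Ddit4, an inhibitor of mTOR signalling, at 0.46 ± 0.06 and Gadd45a, a stress-induced growth arrest gene, at 0.45 ± 0.07 (limma adjusted p = 0.00192 and 0.00527). The rises numbered 3 without the 0 h control array or the 5 h array of either siRNA and 1 without the 2.5 h arrays, and the falls 0 to 2 in these and the other settings without 1 array. Of 28 genes of the unfolded protein and integrated stress response 4 were higher (14.3%) and 0 lower (0 lower also at an unadjusted p under 0.05): Ddit4, Sesn2, Ddit3 and Asns. The count was 4 with any 1 of the 6 arrays left out and 1 without the 2.5 h arrays, when Gadd45a (0.0905), Sesn2 (0.101), Ddit3 (0.0804) and Asns (0.071) were not called.

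A pair of circadian partners went opposite ways: Clock stood at −0.44 ± 0.05 and Arntl, with which its protein pairs, at 0.29 ± 0.04 (limma adjusted p = 0.00139 and 0.00323). They were the 2 called of 13 measured clock genes. Both shares lay under those of all genes, at 7.69% higher (against 10.5%) and 7.69% lower (against 8.67%). Of the 13, 1 was higher and 2 lower at an unadjusted p under 0.05. Leaving out the 2.5 h arrays ended both calls (0.0532 and 0.0723).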
